A study of Homo sapiens with 14 samples.

Results

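Histone genes fall into classes that cells handle differently, and both were measured here in liver cancer cells with and without TAp73β. Core histones H2A, H2B, H3 and H4 form the octamer around which DNA is wound, and the linker histone H1 closes the nucleosome at the entry and exit of the DNA. Most of their genes are replication-dependent: they lie in clusters, are transcribed mainly in S phase when new DNA must be packaged, and give mRNAs that end in a stem-loop instead of a poly(A) tail. Variant histone genes, such as H2AZ1 and H3-3A, lie outside the clusters, and in most cases they give polyadenylated mRNAs and are made through the whole cell cycle.

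The members were all genes whose symbol in the platform annotation begins with H1-, H2AC, H2BC, H3C, H4C, H2AZ, H2AX, H2AJ, MACROH2A or H3-3 and that had a probe set naming 1 gene, each gene being read from its probe set with the highest mean over all arrays. This rule, which used no difference between conditions, gave 57 of the 19775 genes measured. Of these, 42 were replication-dependent genes, 8 were variants (H2AX, H2AZ1, H2AZ2, H2AJ, MACROH2A1, MACROH2A2, H3-3A and H1-10), 4 were germline linker histones (H1-6, H1-7, H1-8 and H1-9P), 2 were pseudogenes (H2AC5P and H4C10P) and 1 was the antisense transcript H1-10-AS1. Classes were assigned by gene symbol, and the replication-dependent class includes H2BC12L, which lies on chromosome 21. Another 20 histone genes, among them the H3.3 gene H3-3B and 7 H4 genes, appear in the annotation only on probe sets that name several genes, and are described further on through those probe sets.

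The cells were Hep3BTAp73β, a line derived from Hep3B hepatocellular carcinoma cells. It was made from resistant colonies after transfection with a tetracycline repressor vector and a TAp73β expression vector, so that doxycycline at 1 µg/mL releases TAp73β transcription, and both the treated (Dox+) and the untreated (Dox−) cells carry the construct. Dox+ and Dox− cultures were profiled on U133 Plus 2.0 arrays at 12 h (2 and 2 arrays), 24 h (2 and 2) and 48 h (3 and 3), 14 arrays in all that the study describes as biological replicates, and no doxycycline-treated cells without the construct were analysed here. Values are log2 levels after RMA, and differences are Dox+ minus Dox− on that log2 scale.

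TP73 itself was above its Dox− level at every time point, by 1.89 at 12 h, 2.27 at 24 h and 1.96 at 48 h (limma, adjusted p = 0.00271, 1.03e-04 and 1.06e-07). All 8 measured hepatocyte markers had means at or above that of the median gene (6.49), and 2 of them were up and 4 down at 48 h (differences −0.86 to 0.54, median −0.26, the mean log2 level of the list being 11.99 to 12.05 on the Dox+ arrays and 12.18 to 12.22 on the Dox− arrays). Their part in the histone results was not tested. Of the markers of other cells, the fibroblast genes LUM and DCN were higher in Dox+ cells at 48 h (2 of 5 measured, the mean log2 level of the list being 6.54 to 6.71 on the Dox+ arrays and 6.32 to 6.40 on the Dox− arrays), 0 of 4 endothelial genes passed, and the leukocyte gene LYZ was lower (1 of 4). The other 3 fibroblast genes had negative differences (median of the list −0.02). In the leukocyte list, 3 differences were positive and 1 was negative (median 0.11). The part of these markers in the histone results was not tested. Replicate spread was widest at 12 h, where the root mean square SD over the 57 genes was 0.253 on the Dox+ and 0.209 on the Dox− arrays, and narrowest at 48 h, with 0.131 on the Dox+ and 0.129 on the Dox− arrays.

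The mean signal over all arrays was under that of the median gene for 40 of the 57 members, 32 of the 42 replication-dependent genes among them, while 7 of the 8 variants lay at or above it. The standard labelling reaction of such arrays starts from the poly(A) tail, which most replication-dependent histone mRNAs lack. How much of each signal came from polyadenylated transcripts was not tested, and because each probe set has its own response, levels of different genes are compared here only as lying above or below that of the median gene.

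Few histone genes changed, and they did not change in a single direction. At 12 h, 0 of 57 passed in either direction (limma with Benjamini-Hochberg adjustment over all genes, threshold 0.05), where 0.647% of all genes were called up and 0.0202% down. At 24 h the count was again 0 of 57, where 3.01% of all genes were up and 2.81% down. Unadjusted p-values under 0.05 were found for 6 members at 12 h and 5 at 24 h (13.7% and 20.2% of all genes). An unmoderated t statistic per gene, after the same adjustment, called 0 of all genes at both times, so that its 0 histone genes say nothing about the members.

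At 48 h, 2 members were higher and 6 lower in Dox+ cells, 3.51% and 10.5% of the 57, where 11.3% of all genes were called up and 12.9% down. The share of histone genes called down was therefore near that of all genes, and the share called up was below it. At an unadjusted p under 0.05 there were 13 members, 2 higher and 11 lower, against 34.2% of all genes. Among the 17 members with a mean at or above the median gene, 2 were up and 2 down, where 17.5% of genes in that range were up and 22.8% down. The 3 arrays of each group did not overlap for 3 members with higher and 12 with lower Dox+ values, where 17.4% and 21.9% of all genes were separated in those directions. Every one of the 8 called differences was smaller than 2-fold, and 1 of them, H2BC12, exceeded 1.5-fold. In these RNA samples of whole cultures, a lower number of cells that make a transcript and less of it per cell cannot be told apart.

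**Figure D1:**
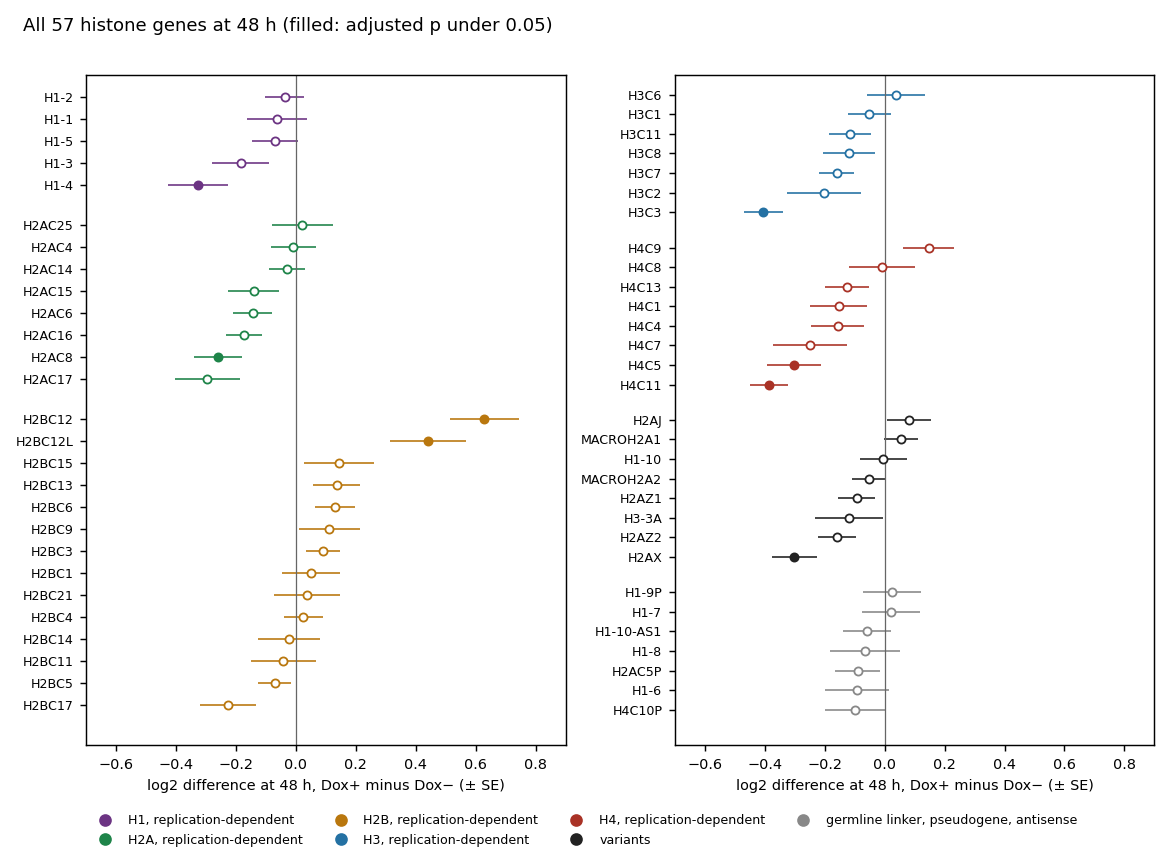
Log2 difference at 48 h (Dox+ minus Dox−, horizontal axis) with its standard error for each of the 57 histone genes, grouped by family. Filled points are the 8 genes past the adjusted threshold: H2BC12 and H2BC12L lie to the right of 0, and H2AC8, H2AX, H4C5, H1-4, H4C11 and H3C3 to the left.

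To show the sequence context of the called genes, the promoter windows of 4 of them are printed here, 1 gene that rose and 3 that fell, from RefSeq on the build GRCh38.p14. Each is the 250 bases before the annotated start, 5′ to 3′ on the strand of the gene. Capitals mark 3 motifs on either strand: the TATA box letters TATAAA, the CCAAT box letters CCAAT and the octamer ATTTGCAT, an element known from H2B promoters that is bound by the factor OCT1. TATAAA and its reverse complement share letters and can overlap.
H2BC12 (chr6:27146859-27147108, minus strand): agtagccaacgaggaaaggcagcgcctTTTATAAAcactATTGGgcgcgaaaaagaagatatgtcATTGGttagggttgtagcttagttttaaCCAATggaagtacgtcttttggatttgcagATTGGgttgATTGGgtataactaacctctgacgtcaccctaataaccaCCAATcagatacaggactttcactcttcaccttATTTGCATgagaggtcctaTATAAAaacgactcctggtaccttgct
H3C3 (chr6:26045134-26045383, plus strand): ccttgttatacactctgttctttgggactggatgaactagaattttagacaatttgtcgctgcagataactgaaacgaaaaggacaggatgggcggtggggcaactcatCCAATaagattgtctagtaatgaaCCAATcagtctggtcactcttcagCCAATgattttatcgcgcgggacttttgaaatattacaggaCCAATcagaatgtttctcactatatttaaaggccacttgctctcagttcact
H4C11 (chr6:27823842-27824091, plus strand): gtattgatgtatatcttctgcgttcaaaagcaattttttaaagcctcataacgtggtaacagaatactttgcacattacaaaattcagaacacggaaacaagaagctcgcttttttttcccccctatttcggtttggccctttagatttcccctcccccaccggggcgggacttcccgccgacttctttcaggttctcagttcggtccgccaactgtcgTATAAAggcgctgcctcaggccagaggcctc
H2AX (chr11:119095466-119095715, minus strand): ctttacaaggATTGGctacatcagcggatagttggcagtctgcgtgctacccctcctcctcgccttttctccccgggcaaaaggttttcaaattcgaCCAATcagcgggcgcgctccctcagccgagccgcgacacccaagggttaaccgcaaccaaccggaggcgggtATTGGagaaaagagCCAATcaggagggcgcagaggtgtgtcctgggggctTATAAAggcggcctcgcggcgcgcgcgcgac

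Promoter windows were matched for 50 of the 57 members, 39 of the 42 replication-dependent genes and all 8 variants. TATAAA was found in 27 of the 39 replication-dependent windows (69.2%) and 3 of 8 variant windows (37.5%), against 11.1% of all 27305 promoters. CCAAT was found in 34 of 39 (87.2%) replication-dependent and 5 of 8 variant windows (62.5%), against 33% of all promoters. The octamer was found in 16 of 39 replication-dependent windows (41%) and 0 of 8 variant windows, against 1.66% of all promoters. By family, it lay in 10 of 13 H2B and 6 of 8 H2A windows and in none of those of H1, H3 or H4, of which 5, 6 and 7 were matched. Among the printed windows, that of H2BC12 holds all 3 motifs, H2AX TATAAA and CCAAT, H3C3 CCAAT, and H4C11 TATAAA. These matches describe letters in a window and say nothing of which factor binds there.

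H2BC12, which encodes an H2B protein and is one of the clustered genes known to give polyadenylated transcripts, showed the largest change of the 57. Its log2 level at 48 h was 10.68, 10.70 and 11.14 on the Dox+ arrays and 10.22, 10.19 and 10.22 on the Dox− arrays. The Dox+ arrays were all above the Dox− arrays, with 1 of the 3 well above the other two. The difference was 0.63 ± 0.11 (SE, n = 3 each), a 1.55-fold higher level (limma, adjusted p = 0.00353), and without the highest Dox+ array, replicate 3, it was 0.48 (limma, adjusted p = 0.00103). At 24 h the gene had 10.69 and 10.96 in Dox+ and 10.49 and 10.41 in Dox− cells, again without overlap, but its difference of 0.37 had an adjusted p of 0.183 (limma). At 12 h the groups overlapped, with 10.52 and 10.71 in Dox+ and 10.55 and 10.48 in Dox− cells. The Dox− level of this gene was lowest at 48 h, where all 3 arrays lay below the 4 earlier Dox− arrays.

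H2BC12L, an H2BC12-like gene on chromosome 21, had 8.84, 8.92 and 9.39 on the Dox+ and 8.63, 8.63 and 8.58 on the Dox− arrays at 48 h. Its groups did not overlap, and its Dox+ replicate 3 was again the highest. The difference was 0.44 ± 0.13 (limma, adjusted p = 0.0318), and without that array it was 0.27 (limma, adjusted p = 0.0165). It did not pass without any one of the 3 Dox− arrays (limma, adjusted p = 0.0747, 0.0777 and 0.0929). The probe set has the suffix _x_at, given to sets whose probes can hybridise to related transcripts, and it cannot be told apart here from signal of H2BC12 or other H2B genes. At 12 h its Dox+ arrays had 7.79 and 8.54 and its Dox− arrays 8.38 and 8.45, and the Dox+ pair lay farther apart than the means of the groups.

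Among the genes that were lower, H3C3, which encodes a canonical H3, had 5.15, 5.01 and 5.16 on the Dox+ and 5.48, 5.56 and 5.48 on the Dox− arrays at 48 h. Replicates lay close together and the groups were well separated, with a difference of −0.40 ± 0.06 (limma, adjusted p = 0.0017), so that the Dox+ level was 0.755 times the Dox− level. Its arrays overlapped at 12 h and the difference at 24 h was −0.19 (limma, adjusted p = 0.503). The mean of H3C3 over all arrays, 5.31, was under that of the median gene.

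Both H4 genes that fell encode the same H4 protein. H4C11 had 7.26, 7.36 and 7.41 in Dox+ and 7.66, 7.77 and 7.76 in Dox− cells at 48 h, a difference of −0.39 ± 0.06 (limma, adjusted p = 0.00225). H4C5 had 5.64, 5.73 and 5.48 in Dox+ and 5.76, 6.05 and 5.94 in Dox− cells, a difference of −0.30 ± 0.09 (limma, adjusted p = 0.0399). The groups did not overlap for either gene, by a wide margin for H4C11 and a narrow one for H4C5. The mean of H4C5 over all arrays, 5.64, was under that of the median gene. H4C11 is read by an _x_at probe set too, with 1 Dox+ array at 12 h far below the other (6.81 and 7.56 in Dox+, 7.42 and 7.46 in Dox− cells), and H4C5 was lower in Dox+ cells at 24 h as well without passing (−0.35, limma, adjusted p = 0.20).

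H1-4, a linker histone of somatic cells, had 4.91, 5.03 and 4.65 on the Dox+ and 5.30, 5.17 and 5.10 on the Dox− arrays at 48 h, and H2AC8, an H2A gene, had 5.34, 5.10 and 5.17 on the Dox+ and 5.36, 5.52 and 5.51 on the Dox− arrays. Neither pair of groups overlapped, though the gap was small. Both genes had a mean over all arrays under that of the median gene (4.96 for H1-4 and 5.37 for H2AC8). The differences were −0.33 ± 0.10 for H1-4 (limma, adjusted p = 0.0428) and −0.26 ± 0.08 for H2AC8 (limma, adjusted p = 0.0416). H1-4 did not pass in 5, H2AC8 in 4 and H4C5 in 4 of the 6 fits that leave out 1 array, and the number of members called down was 2 (H3C3 and H4C11) without Dox− replicate 2.

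**Figure D2:**
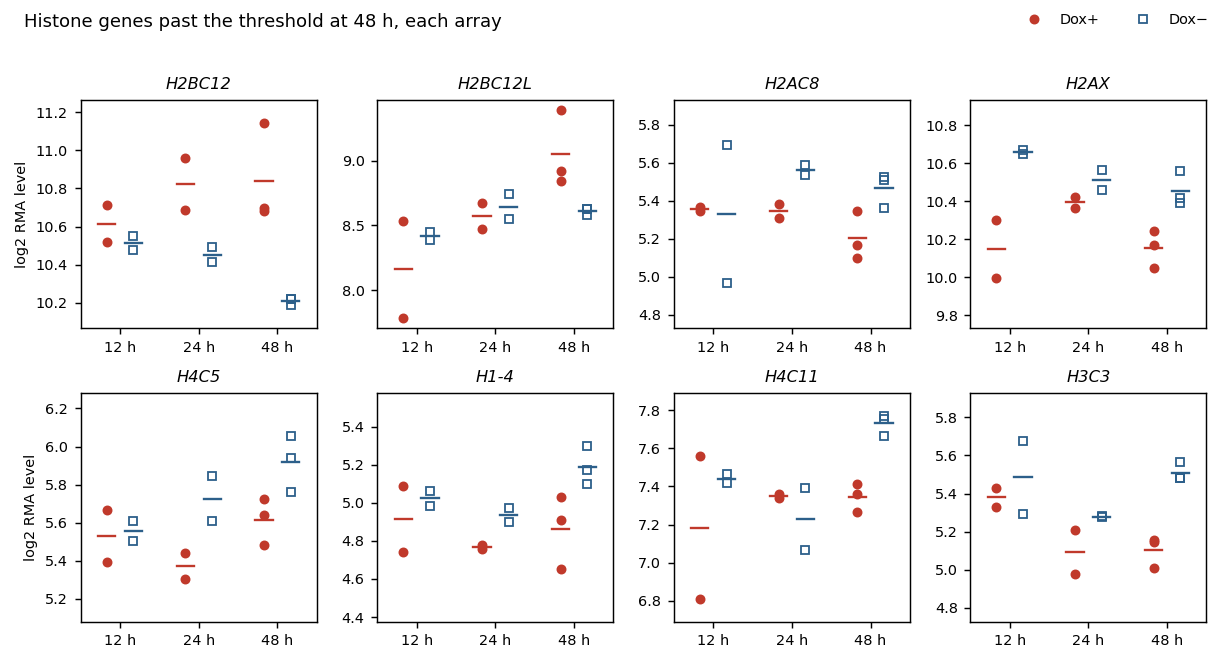
Log2 RMA level (vertical axis, a separate range for each gene) of the 8 histone genes past the threshold at 48 h, on every array of the 3 time points. Filled circles are Dox+ arrays, open squares Dox− arrays and short lines the group means. At 48 h the Dox+ circles lie above the squares for H2BC12 and H2BC12L and below them for the other 6 genes.

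By family, the replication-dependent genes called at 48 h were 0 up and 1 down of 5 H1 genes, 0 up and 1 down of 8 H2A genes, 2 up and 0 down of 14 H2B genes, 0 up and 1 down of 7 H3 genes, and 0 up and 2 down of 8 H4 genes. Of all genes, 11.3% were called up and 12.9% down at that time. Counting all differences, called or not, 10 of 14 H2B genes had a positive difference at 48 h, compared with 0 of 5 H1, 1 of 8 H2A, 1 of 7 H3 and 1 of 8 H4 genes. The counts of H2B and H2A were otherwise at the earlier times, with 3 of 14 H2B and 6 of 8 H2A genes positive at 12 h and 8 of 14 H2B and 2 of 8 H2A genes at 24 h. The families were not tested against each other. The median differences at 48 h were 0.07 for H2B, −0.07 for H1, −0.14 for H2A, −0.12 for H3 and −0.16 for H4, against −0.02 for all genes. Several H2B and H4 probe sets can hybridise to transcripts of sister genes, so members of a family are not separate observations. Whether the families differ was not tested.

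Of the 6 clustered genes for which polyadenylated transcripts are known (H1-2, H2AC6, H2BC4, H2BC5, H2BC12 and H2BC21), H2BC12 alone passed at 48 h. H2BC5 had 8.72, 8.68 and 8.68 in Dox+ and 8.76, 8.77 and 8.77 in Dox− cells, and H2AC6 had 8.43, 8.44 and 8.36 in Dox+ and 8.46, 8.58 and 8.62 in Dox− cells. In both, the Dox+ arrays lay below the Dox− arrays by a small margin, with differences of −0.07 and −0.14 (limma, adjusted p = 0.414 and 0.151). H1-2, H2BC4 and H2BC21 overlapped between the groups at 48 h, with differences of −0.04, 0.02 and 0.04. H2BC4 had been lower in Dox+ cells at both earlier times, with differences of −0.35 at 12 h and −0.35 at 24 h, neither of which passed (limma, adjusted p = 0.355 and 0.162).

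Of the 8 variants, 1 passed at 48 h. H2AX, the H2A variant whose phosphorylated form marks DNA double-strand breaks, had 10.24, 10.17 and 10.05 on the Dox+ and 10.39, 10.56 and 10.42 on the Dox− arrays. All Dox+ arrays were below all Dox− arrays, and the difference was −0.30 ± 0.07 (limma, adjusted p = 0.0162), which did not pass without Dox− replicate 2 (−0.25, limma, adjusted p = 0.0597). The groups were also apart at 12 h, with 10.00 and 10.30 in Dox+ and 10.65 and 10.67 in Dox− cells, and at 24 h, with 10.42 and 10.36 in Dox+ and 10.46 and 10.56 in Dox− cells. Those differences, −0.51 and −0.12, did not pass (limma, adjusted p = 0.267 and 0.662). The other probe sets of H2AX, tested with every probe set on its own, did not pass at any time, and their differences at 48 h were −0.25, −0.13 and 0.02. At 12 h these sets gave −1.07, −0.38 and 0.17. At 24 h they gave −0.26, 0.17 and 0.53, the last from a set with 6.30 and 6.29 in Dox+ and 5.62 and 5.92 in Dox− cells (limma over every probe set, adjusted p = 0.1001). The probe sets of H2AX therefore did not share a single direction at any of the 3 times.

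H2AZ2, which together with H2AZ1 encodes the H2A.Z variant found around transcription start sites, had 12.02, 12.01 and 11.90 in Dox+ and 12.10, 12.21 and 12.10 in Dox− cells at 48 h. The groups did not overlap, but the difference of −0.16 (95% interval −0.30 to −0.02) missed the threshold (limma, adjusted p = 0.11). Of its other 3 probe sets, 1 was lower past the threshold when every probe set was tested on its own, with 9.76, 9.74 and 9.65 in Dox+ and 9.89, 10.04 and 9.99 in Dox− cells (−0.25, limma, adjusted p = 0.041). H2AZ1 had 12.88, 12.92 and 12.80 in Dox+ and 12.96, 13.01 and 12.91 in Dox− cells, which overlapped narrowly, and a difference of −0.09 (−0.23 to 0.05).

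MACROH2A1 and MACROH2A2 encode H2A variants with a large non-histone domain that are linked to silent chromatin. MACROH2A1 had 12.15, 12.14 and 12.11 in Dox+ and 12.03, 12.09 and 12.11 in Dox− cells at 48 h and MACROH2A2 had 8.18, 8.23 and 8.25 in Dox+ and 8.26, 8.30 and 8.26 in Dox− cells. The groups of MACROH2A1 overlapped and those of MACROH2A2 were separated by a very small gap, with differences of 0.06 (−0.07 to 0.18) and −0.05 (−0.18 to 0.07). MACROH2A2 was farther apart at 12 h, with 8.41 and 8.02 in Dox+ and 8.73 and 8.63 in Dox− cells, a difference of −0.47 that did not pass (limma, adjusted p = 0.326). Another of the 7 MACROH2A1 probe sets was lower at 24 h, with 7.03 and 7.18 in Dox+ and 8.20 and 7.74 in Dox− cells (−0.86, limma over every probe set, adjusted p = 0.0332), and differed by −0.16 at 48 h (adjusted p = 0.301). The probe sets of this gene therefore did not give a single answer at 24 h.

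H2AJ, an H2A variant outside the large clusters, had 10.44, 10.50 and 10.61 in Dox+ and 10.34, 10.44 and 10.54 in Dox− cells at 48 h, with a difference of 0.08 (−0.09 to 0.25). H1-10, a linker histone variant, had 10.41, 10.31 and 10.14 in Dox+ and 10.33, 10.23 and 10.32 in Dox− cells and a difference of 0.00 (−0.18 to 0.17). Both overlapped between the groups. H3-3A, which with H3-3B encodes the replacement histone H3.3, had 4.88, 4.92 and 4.68 in Dox+ and 5.20, 4.83 and 4.80 in Dox− cells (−0.12, −0.38 to 0.14), and at 12 h its probe set varied from 4.92 to 6.59 within the Dox+ pair, so that a difference at that time was not measurable by it. The intervals for H2AZ1, MACROH2A1, MACROH2A2, H2AJ, H3-3A and H1-10 include 0 and do not reach 0.40 in either direction.

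**Figure D3:**
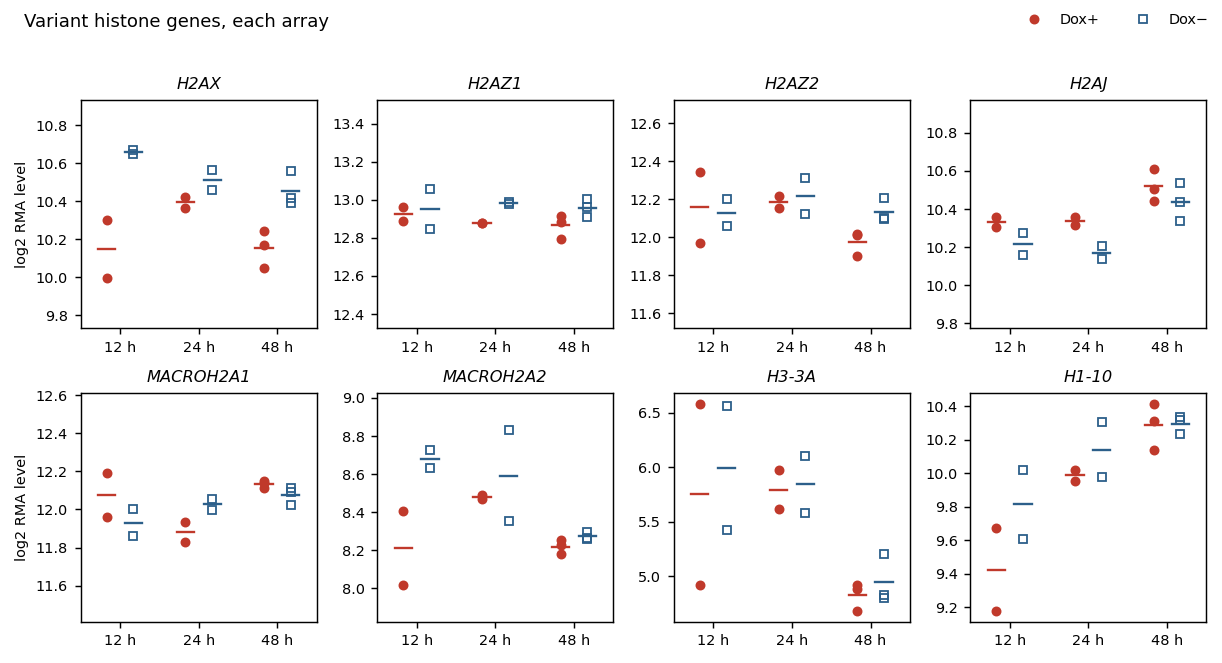
Log2 RMA level (vertical axis, a separate range for each gene) of the 8 variant histone genes on every array of the 3 time points. Filled circles are Dox+ arrays, open squares Dox− arrays and short lines group means. H2AX is the gene whose Dox+ arrays lie below its Dox− arrays at all 3 times.

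Set side by side, the replication-dependent genes had 2 up and 5 down of 42 at 48 h and the variants 0 up and 1 down of 8. Of the 2 up, 1 was H2BC12L, placed in this class by its symbol. The shares down, 11.9% and 12.5%, were near the 12.9% of all genes, and the share of replication-dependent genes up was 4.76% against 11.3%. Replication-dependent genes had a median difference of −0.10 at 12 h, variants of −0.13 and all genes of −0.04. The medians in the same order were −0.06, −0.11 and 0.02 at 24 h, and −0.07, −0.07 and −0.02 at 48 h. Both medians lay slightly below that of all genes at every time, and that gap was not tested. Among genes with a mean at or above the median gene, the median of replication-dependent genes at 48 h lay above that of all genes instead (−0.0048 against −0.0333). The germline linker histones, pseudogenes and the antisense transcript had no called member at any time, with differences at 48 h between −0.10 and 0.02. The difference in effect between 48 h and 12 h, and between 48 h and 24 h, was tested for every gene in a fit of all 14 arrays with and without array weights, and 0 members passed both fits in either case, where 1.05% and 0.657% of all genes did. Without the weights, 0 members passed in the limma fit, where 633 and 134 of all genes did. At an unadjusted p under 0.05 there were 6 and 2 members, for which the count over all genes was not taken.

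Probe sets that name several histone genes read groups of near-identical transcripts and were tested together with every other probe set on the array, of which 6.69% were called up and 7.12% down at 48 h. Of the 28 such histone probe sets, 0 passed at 12 h or 24 h. An unadjusted p under 0.05 was found for 2 and 3 of them (limma). How many of all probe sets passed at those times was not counted, so these numbers cannot be set against a background. At 48 h, 3 of the 28 histone probe sets were up and 1 was down. Those for H2AC18 and H2AC19, H2A genes of the chromosome 1 cluster, gave 2 of the 3 rises. The brighter of them had 10.10, 10.16 and 10.47 in Dox+ and 9.90, 9.89 and 9.93 in Dox− cells (0.34, limma, adjusted p = 0.0438), and the other had 8.75, 8.69 and 8.85 in Dox+ and 8.47, 8.47 and 8.38 in Dox− cells (0.32, adjusted p = 0.0131). Neither overlapped between the groups, while a dim further set for the same genes had a difference of −0.23 that did not pass. The other rise was on a set for H2BC4, H2BC6, H2BC7, H2BC8 and H2BC10 (0.29, adjusted p = 0.0373).

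The fall among these was on an _x_at set that names 11 H4 genes, with 7.04, 7.05 and 6.86 in Dox+ and 7.30, 7.47 and 7.39 in Dox− cells (−0.41, limma, adjusted p = 0.00713). The brightest set for the same 11 genes had 13.24, 13.25 and 13.07 in Dox+ and 13.44, 13.47 and 13.32 in Dox− cells, again without overlap, and its difference of −0.22 did not pass (adjusted p = 0.097). The other 3 sets for these H4 genes had differences of −0.18, −0.18 and −0.03, so that all 5 lay below 0. The 8 sets that name H3-3A together with H3-3B had differences between −0.15 and 0.03 at 48 h. At 24 h, 2 of them were at −0.56 and −0.52 without passing (adjusted p = 0.0572 and 0.0743), and the 4 that name H3-3A, H3-3B and the pseudogene H3P6 lay between −0.12 and 0.16.

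Of the machinery that makes, carries and places histones, 50% of the chaperones and deposition factors were called down at 48 h. The share was 27.8% for the factors of histone mRNA transcription and 3′ processing, and 10.5% for the histone genes. These shares were not tested against each other and were not matched for level. The mean was under that of the median gene for 40 of the 57 histone genes. Of 28 measured histone chaperones and deposition factors, 0 were up and 14 down at 48 h, with a median difference of −0.20. At that time 12.9% of all genes were down. Among genes with a mean at or above the median gene, 22.8% were down, and 11.8% of the histone genes in that range. At 24 h, 0 chaperones were up and 2 down, where 3.01% of all genes were up and 2.81% down. Group averages here and in the paragraphs that follow are given at 48 h with the SD (n = 3 each). HJURP, the chaperone of the centromeric H3 variant CENP-A, averaged 9.29 ± 0.22 in Dox+ and 10.09 ± 0.06 in Dox− cells (−0.80, limma, adjusted p = 5.06e-04). IPO4, an importin that carries H3 and H4 into the nucleus, averaged 8.96 ± 0.10 in Dox+ and 9.44 ± 0.10 in Dox− cells (−0.48, limma, adjusted p = 0.0015). HIRA, which deposits H3.3, averaged 10.40 ± 0.07 in Dox+ and 10.80 ± 0.05 in Dox− cells (−0.40, limma, adjusted p = 0.00144), and CHAF1A, the large subunit of the complex that loads H3 and H4 at replication forks, averaged 8.98 ± 0.10 in Dox+ and 9.36 ± 0.02 in Dox− cells (−0.38, limma, adjusted p = 0.00277). CENPA itself, a histone gene outside the naming rule, was lower at 24 h (−0.96, limma, adjusted p = 0.00633) and at 48 h (−0.53, adjusted p = 0.00353). Of the 4 measured histone genes outside that rule, CENPA alone was called at either time. At 48 h, 2 of the 4 had positive differences, and the median of the 4 was −0.005. The number of chaperones called down was 7 without Dox− replicate 2 and 9 without Dox+ replicate 1.

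Histone mRNA transcription and 3′ processing factors gave 0 up and 5 down of 18 at 48 h, with a median difference of −0.14. The share down was 27.8%, against 12.9% of all genes and 22.8% of those with a mean at or above the median gene. ZNF473, the zinc finger protein that works with the U7 particle in cutting histone pre-mRNA, averaged 7.84 ± 0.05 in Dox+ and 8.46 ± 0.03 in Dox− cells (−0.62, limma, adjusted p = 7.98e-05), and was already lower at 24 h (−0.83, limma, adjusted p = 0.0144). CPSF3, the endonuclease that makes the cut, averaged 9.60 ± 0.06 in Dox+ and 9.93 ± 0.04 in Dox− cells (−0.32, limma, adjusted p = 0.00367). CSTF2, an RNA-binding subunit of the cleavage stimulation factor, and NCBP1, the large subunit of the cap-binding complex, had differences of −0.30 and −0.28 (limma, adjusted p = 0.0219 and 0.00844), and the fifth was NPAT, the S phase activator of the clustered histone genes (−0.25, adjusted p = 0.00978). SLBP, which binds the histone stem-loop, overlapped between the groups at 11.28 ± 0.07 in Dox+ and 11.37 ± 0.08 in Dox− cells (−0.09, adjusted p = 0.381).

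S phase genes, given here because clustered histone genes are transcribed in that phase, had 2 up and 12 down of 23 at 48 h and 0 up and 7 down at 24 h, with a median difference of −0.22 at 48 h, beside 11.3% up and 12.9% down among all genes at 48 h (3.01% and 2.81% at 24 h). Among genes with a mean at or above the median gene, 17.5% were up and 22.8% down at 48 h. CCNA2, the cyclin of S phase and G2, averaged 9.90 ± 0.18 in Dox+ and 10.59 ± 0.13 in Dox− cells (−0.69, limma, adjusted p = 0.00114). CDC45, a part of the replicative helicase, averaged 8.10 ± 0.11 in Dox+ and 8.77 ± 0.03 in Dox− cells (−0.67, limma, adjusted p = 1.38e-04). TK1, which makes thymidine phosphate for DNA synthesis, and CDC6, which loads the replicative helicase, had differences of −0.50 and −0.48 (limma, adjusted p = 0.00308 and 7.71e-04). The genes that rose were the E cyclins CCNE1 and CCNE2, which act at the entry into S phase (0.39 and 0.39, adjusted p = 0.00297 and 0.00789). Their part in the histone levels was not tested.

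**Figure D4:**
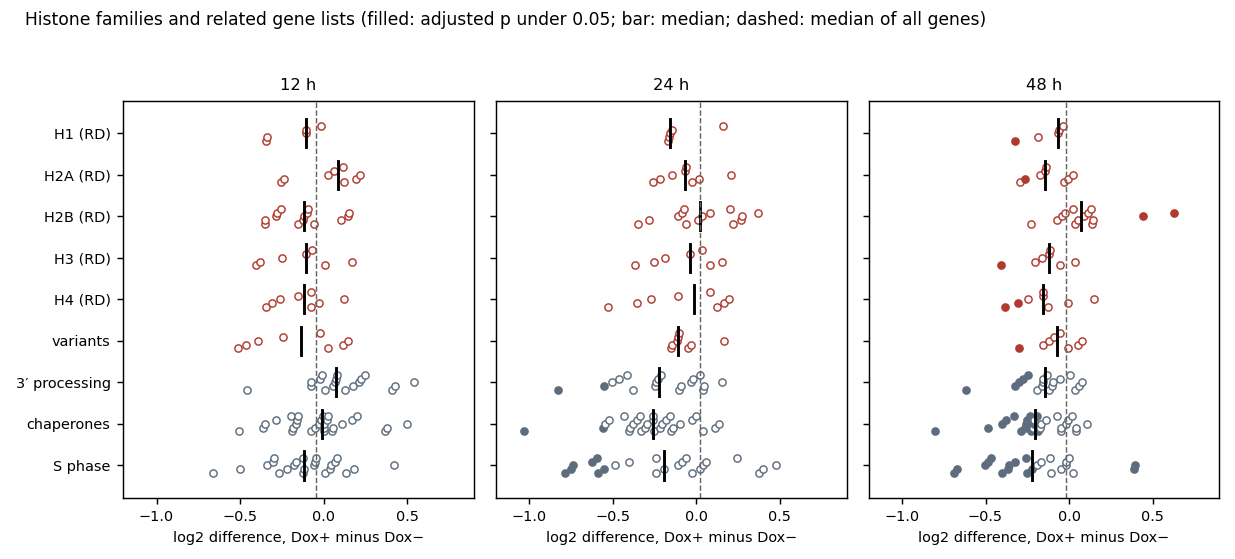
Log2 difference (Dox+ minus Dox−, horizontal axis) of every measured gene in the replication-dependent (RD) histone families, the variants, the histone mRNA transcription and 3′ processing factors, the histone chaperones and the S phase genes, with a panel for each time point. Filled points passed the adjusted threshold, black bars are group medians and the dashed line is the median of all genes. At 48 h the medians of the histone groups lie between −0.16 and 0.07, and those of the other lists between −0.22 and −0.14.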

How the data were processed

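RNA of the 14 cultures was hybridised to U133 Plus 2.0 arrays. The authors deposited log2 values after RMA, and the submitters' processing notes name R 3.5.1. No further normalization was applied. Of 54675 probe sets, 41091 name 1 gene in the platform annotation. For every time point a linear model was fitted to the Dox+ and Dox− arrays with limma 3.58.1 (lmFit, then eBayes at default settings) under R 4.3.3, and the two-sided p-values of all 19775 genes were adjusted by the Benjamini-Hochberg method. The fits were tested on simulated data. The precision is limited by the number of arrays, with a median standard error over the 57 genes of 0.160 at 12 h, 0.140 at 24 h and 0.0858 at 48 h. Promoters came from RefSeq tables of GRCh38.p14. The members and gene lists were chosen with earlier results of these data known. Each member could be named. From each list up to 4 genes called at 48 h with the largest change were named, and NPAT, SLBP, CENPA, CCNE1, CCNE2, LUM, DCN and LYZ were added after their values were seen. The array annotation gives no coordinates for probe sets. Alternatives are listed under the dependence on processing.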

Additional observations from a re-analysis of the deposited data

How the results depend on the processing

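The limits are the few arrays and, for 40 of the 57 genes, a mean under that of the median gene. Fitting all 14 arrays together gave 3 members down at 12 h (H2AX, H2BC4 and H3C11), 1 down at 24 h (H2BC4), and 1 up and 2 down at 48 h. At 24 h, 1 was down with the probe set of largest interquartile range (MACROH2A1), and 1 up (H2BC12) and 1 down (H4C1) with the trend and robust options of eBayes. At 48 h, 3 were down with dim genes left out (H2AX, H2AZ2 and H4C11) or with every probe set on its own (H2AX, H3C3 and H4C11). H2AZ2 was also among those down with the probe set of largest interquartile range and with the trend and robust options. Without _x_at probe sets 1 was up, and 0 were up and 3 down by an unmoderated t statistic per gene (H3C3, H4C11 and H2BC5). With no test, 1 was up and 0 down at 1.5-fold and 0 and 0 at 2-fold. Leaving out 1 array at a time gave 1 to 2 up and 2 to 5 down at 48 h, the lower counts without Dox− replicate 2, and 1 up without any 1 of the Dox− arrays. These were not always genes called in the main fit. H2BC17 and H3C2 were down without Dox− replicate 3, and H2AC17 without Dox+ replicate 3. At 48 h every such fit kept at least 2 arrays in each group. At 24 h it gave 0 to 1 down, the 1 being H4C1 without Dox+ replicate 2. Quantile normalization left the counts at 2 up and 6 down. H2AX turned to 0.0196 at 48 h with its probe set of largest interquartile range. The estimates of the other 7 called genes could change only with quantile normalization or with 1 array left out, and they kept their signs there. The remaining alternatives alter only the variance or the adjustment for these genes. H3C3 passed in all of its 14 alternatives. The fit with dim genes left out is not among them, because the mean of H3C3 lay under that of the median gene. The highest adjusted p was 0.0695 for H2BC12, by the unmoderated t statistic, and 0.101 for H4C11, in the limma fit of all 14 arrays. The chaperones called down ranged from 6 in the fit of all 14 arrays to 18, apart from fold thresholds, and the 3′ processing factors from 2 to 10.

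Replicate numbers are shared between the groups. Same-numbered arrays deviated from their group means with correlations of 0.255 at 12 h, −0.110 at 24 h and 0.109, 0.0892 and 0.102 at 48 h. Arrays with different numbers gave −0.0764 to −0.0163 at 48 h. The main fits did not pair the samples by number, and whether the numbers mark pairs was not tested. With the replicate number as a block, 2 members were up and 5 down at 48 h and 0 passed at 12 h and 24 h, and every 48 h array correlated best with its own number. Crossed numbers at 24 h, an alternative added after seeing the data, gave 0 up and 1 down. No alternative gave a member whose effect differed between time points.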
